A study of Mus musculus with 12 samples.

Results

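Complement is a blood and tissue defence system, and 30 mouse genes of it were followed here along the first 3 segments of the epididymis, in control and in duct-ligated mice. The 30 genes were taken from a written list of complement components, receptors and regulators, of 55536 genes counted, and were matched by identifier to GENCODE mouse release 21. The study compared wild-type (WT) mouse epididymis segments 1, 2 and 3 after efferent duct ligation, in which a suture closes the ducts that carry sperm and fluid from the testis, with the same segments of non-ligated controls. The 6 groups had 2 libraries apiece, 1 from sequencing batch 3017 and 1 from batch 3097. RNA of 2 mice was pooled for every library, so a p-value measures the spread between pools, which may be partly technical. All groups share the WT genotype and polyadenylated RNA as the material sequenced. Strain, age and the interval between ligation and collection were not given in the sources used here.

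Complement is started by 3 routes that meet at C3. In the classical route the recognition molecule C1q, bound to its target, switches on the proteases C1r and C1s, which cut C4 and C2. The lectin route uses collectins or ficolins with the MASP proteases, and the alternative route uses factor B, factor D and properdin. Cut C3 marks surfaces and leads on to C5 and to the membrane pore built from C5b, C6, C7, C8 and C9, while soluble and membrane-bound regulators stop the cascade on the host's own cells. Sperm and the duct that stores them are known to carry such regulators.

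Total counts were 30485275 to 42313728 per library. The tissue labels were matched by the epididymal gene Gpx5, a secreted glutathione peroxidase, which lay at 26632 to 62631 CPM (counts scaled to library size, here always with TMM) in all 12 libraries. The sperm gene Prm1, a protamine, reached 21.1 CPM in control libraries and at most 0.0974 CPM in ligated ones. The control segment 2 libraries stood apart from each other more than any other pair, their counts differing by 129 in chi-square per degree of freedom, against 24.7 to 89.1 elsewhere. The segment 1 gene Lcn8, a lipocalin, was at 3320 CPM in the control segment 2 library of batch 3017 and at 210 CPM in that of batch 3097, beside 13694 and 14229 CPM in control segment 1 and 94.6 and 102 CPM in control segment 3. Results that rest on control segment 2 are therefore also given without one of its libraries where that changes a call. In whole tissue, fewer cells of a type and less RNA per cell cannot be told apart.

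Expression of the pathway was uneven. Compared per length, as reads per kilobase of exon scaled to library size (RPKM, mean of 12 libraries), the most abundant of the 30 genes was Cd59a, the glycolipid-anchored blocker of the membrane pore, at 25.6. It was followed by C1qbp, a mainly mitochondrial protein that binds the globular heads of C1q, at 20.8, by C1qb at 17.6 and C1qa at 17.4, and by Cfi, the protease factor I, at 11.8. Cr1l, which encodes the rodent membrane regulator Crry, and C3 were nearly equal at 9.12 and 9.10. C1qc stood at 7.79, C8g at 6.64, C7 at 4.55 and C1ra at 1.85. Regulators and C1q chains thus made up most of the top of this order. The order depends on the summed exon length, 10349 bases for Cr1l and 1811 for Cd59a. In CPM, not divided by length, Cr1l was the highest of the 30 genes, with a mean of 94.4 against 46.3 for Cd59a. Cd59a, Cr1l, C1qa, C1qb and Vtn were higher in batch 3097 than in batch 3017 in all 6 groups, and Cfp was lower in all 6. The fit takes out such a batch difference.

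At the other end, 5 of the 30 genes had too few reads to be tested. C6, a pore component, had 5 counts over the 12 libraries, Cfd, the alternative-route protease also called adipsin, 11, Hc, which encodes C5, 10, Cfb, which encodes factor B, 20, and Masp1, a lectin-route protease, 27. The 10 counts of Hc all came from segment 1, with 0 and 3 counts in the control libraries and 3 and 4 in the ligated ones. A count of 0 allows up to 3 counts, or 0.0700 to 0.103 CPM depending on the library. The alternative route was therefore represented by C3, Cfp and regulators, with its 2 defining proteases near the detection limit. Of Cfb's exon bases, 79.5% are shared with the read-through gene Gm20547, which had 0 counts in every library, so reads on the shared stretch may have been dropped by the authors' counting. The same gene shares 42.8% of the exon bases of C2.

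**Figure D1:**
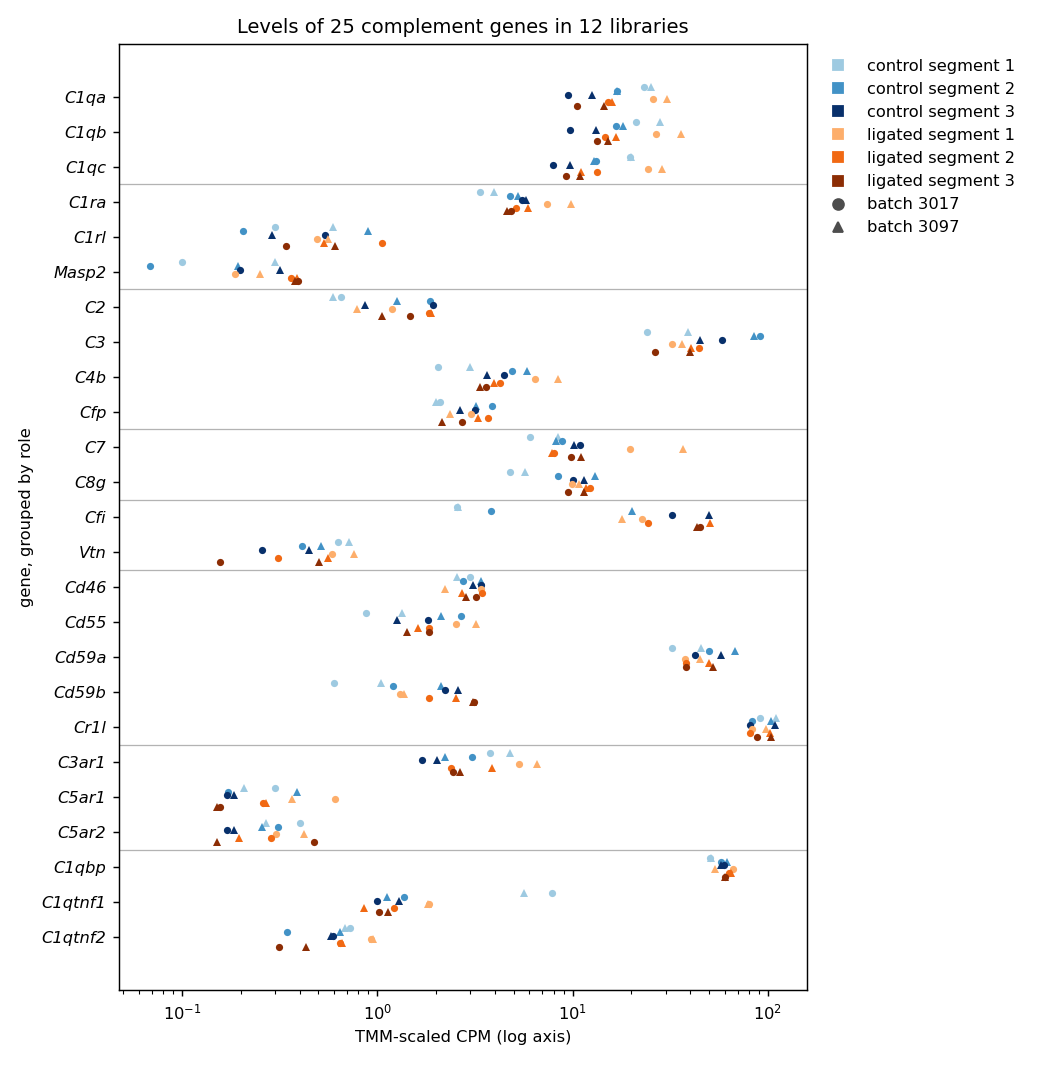
Levels of the 25 tested complement genes in each of the 12 libraries, as TMM-scaled CPM on a log axis, with genes ordered by role, colours for the 6 groups, circles for batch 3017 and triangles for batch 3097. Cr1l lies at 80.8 to 110 CPM in all libraries, whereas Cfi spans 2.55 to 50.7 CPM and C1qtnf1 is highest in control segment 1.

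After ligation 8 complement genes were higher in segment 1, from most stages of the cascade. They were the C1q chains C1qb and C1qc, the protease C1ra, C4b, the pore components C7 and C8g, factor I (Cfi) and the membrane regulator Cd55. The C1q-domain gene C1qtnf1 was lower. Thus 9 of the 30 genes passed the test in segment 1 (25 tested, edgeR's quasi-likelihood test, Benjamini-Hochberg adjusted p under 0.05 over 19213 genes), where 48.7% of all genes tested passed, 24.4% of them higher and 24.4% lower. The median log2 fold change was 0.38 over the 25 and 0.03 over all genes tested. A share of 9 in 25 is not above that background, and the split of 8 higher and 1 lower is a description of a chosen list. In segment 2 only C3 and Cd59a passed, both lower, against 9.86% of all genes (2.87% higher and 7% lower). In segment 3 none passed, against 1.72% of all genes (0.312% higher and 1.41% lower). There 2 of the 25 had an unadjusted p under 0.05, and DESeq2 also called 0.

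**Figure D2:**
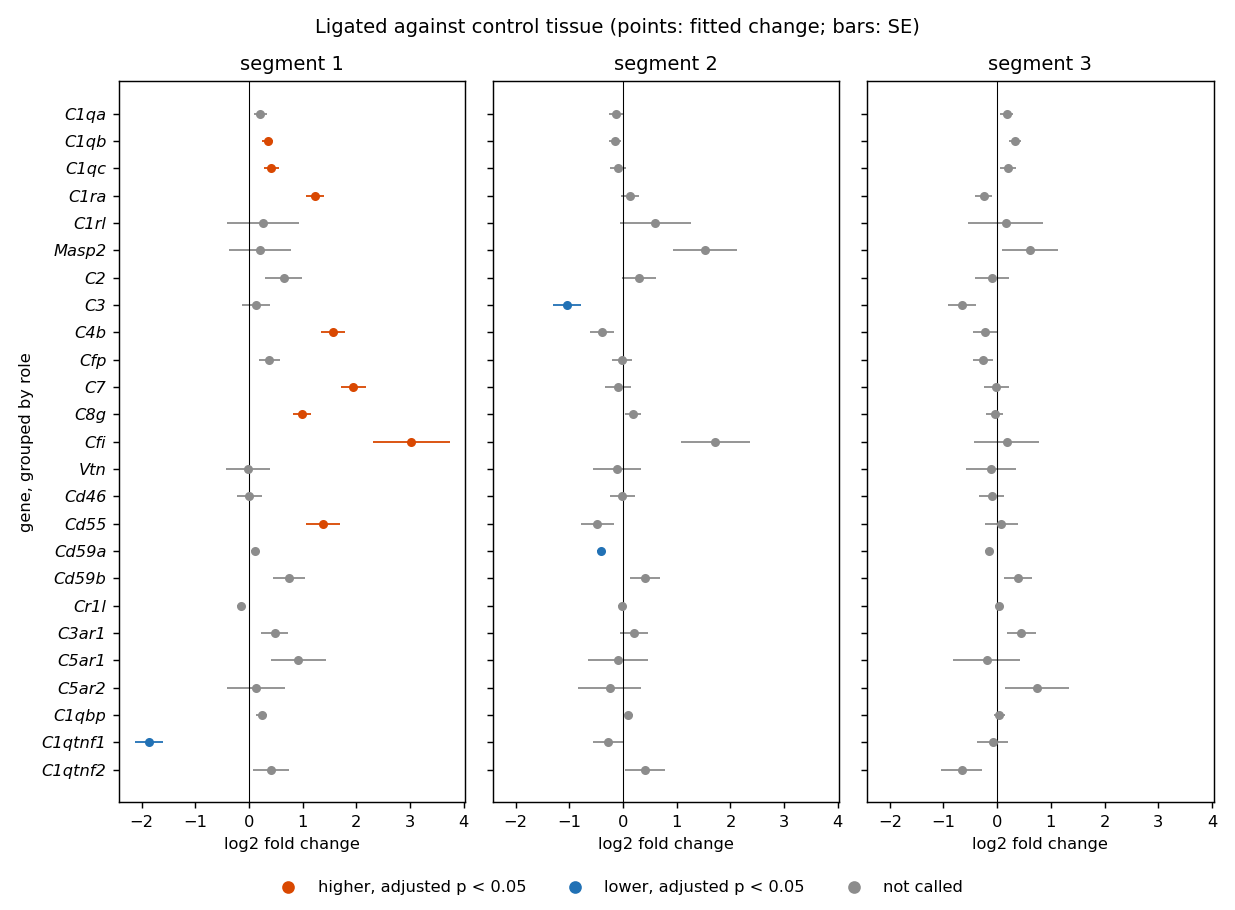
Fitted log2 fold change of ligated against control tissue for 25 complement genes in segments 1, 2 and 3, with bars for the standard error and colours for genes that passed the test. In segment 1 the points run from -1.87 for C1qtnf1 to 3.03 for Cfi, in segment 2 the called genes are C3 and Cd59a, and in segment 3 none is called.

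Along control ducts, the same genes differed between segments. From segment 1 to segment 2, 9 of the tested genes were higher (C1ra, C2, C3, C4b, C8g, Cfp, Cd55, Cd59a and Cd59b) and 4 lower (C1qa, C1qb, C1qc and C1qtnf1), 13 in all beside 43.2% of all genes called (22.1% higher and 21.1% lower). Between segments 3 and 1, 7 were higher (C1ra, C2, C4b, C8g, Cfi, Cd59a and Cd59b) and 5 lower (the C1q chains, C3ar1 and C1qtnf1), beside 51.2% of all genes (26.2% higher and 25% lower). Segments 2 and 3 differed in C1qa and C1qb alone, both lower in segment 3, beside 1.79% of all genes (0.874% higher and 0.911% lower). These comparisons share libraries with each other and with the ligation comparisons, so agreement in direction among them is not counted as a result. Without the control segment 1 library of batch 3017, 5 genes were called between segments 2 and 1 in place of 13. With edgeR run on the 2 groups alone, 8 were.

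The recognition molecule C1q is built from 3 chains, encoded by C1qa, C1qb and C1qc side by side on chromosome 4 (C1qa at chr4:136895917-136898803, C1qb at chr4:136880129-136886187 and C1qc at chr4:136889804-136893065, all on the minus strand of GRCm38), and in most tissues it is known as a macrophage product. The 2 chains with a promoter window in the RefSeq table used here are shown because the 3 genes moved together along the duct. Each window holds 250 bases before and 50 after the transcript start in GRCm38.p6, read on the gene's own strand, C1qb from chr4:136886151-136886450 (minus) and C1qc from chr4:136892865-136893164 (minus). Capitals mark AGGAAG, the core bound by ETS factors, on either strand (CTTCCT on the other).
C1qb promoter: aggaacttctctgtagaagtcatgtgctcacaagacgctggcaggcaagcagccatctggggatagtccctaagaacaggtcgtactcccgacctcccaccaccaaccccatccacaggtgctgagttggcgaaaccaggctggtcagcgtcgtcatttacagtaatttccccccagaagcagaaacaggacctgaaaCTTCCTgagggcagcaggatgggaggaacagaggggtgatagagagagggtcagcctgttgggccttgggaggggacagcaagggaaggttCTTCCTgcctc
C1qc promoter: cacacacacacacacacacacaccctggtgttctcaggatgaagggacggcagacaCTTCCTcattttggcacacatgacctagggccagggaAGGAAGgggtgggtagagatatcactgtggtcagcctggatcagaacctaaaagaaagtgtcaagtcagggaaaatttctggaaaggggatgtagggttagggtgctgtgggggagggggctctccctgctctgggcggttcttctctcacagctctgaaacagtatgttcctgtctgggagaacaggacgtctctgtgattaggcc
Both windows hold 2 matches. AGGAAG occurs in 35.4% of 32851 mouse promoter windows of this length and in 8 of the 23 members that have one, so the matches are a description and not evidence of binding.

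C1q expression fell from segment 1 to segment 3 in control tissue, by a little more than 1 log2 unit in each chain. C1qa was at 23.3 and 25.3 CPM in control segment 1 (batch 3017 first, as throughout), 16.9 and 16.9 in segment 2 and 9.46 and 12.6 in segment 3. C1qb was at 21.2 and 28.1, then 16.7 and 18.1, then 9.68 and 13.2 CPM. C1qc was at 19.6 and 19.8, then 13.2 and 12.9, then 7.89 and 9.66 CPM. For all 3 chains the libraries of the control segments did not overlap and were ordered 1, 2, 3. The share of all genes with such an order was not counted. Between control segments 3 and 1, 51.2% of all genes were called. The call for segment 2 against 1 was lost in 2 of 19 alternative analyses for C1qa, in 3 for C1qb and in 1 for C1qc. The log2 fold changes of segment 3 against 1 were -1.15 ± 0.13 (SE, 2 libraries a group) for C1qa, -1.11 ± 0.11 for C1qb and -1.17 ± 0.15 for C1qc, with adjusted p of 9.85e-05, 5.86e-05 and 0.000181 by edgeR's quasi-likelihood test, and all 3 calls held in each of 19 alternative analyses.

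Several markers of macrophages were lower in control segment 3 than in segment 1, as the C1q chains were. Adgre1, a surface receptor of mouse macrophages, was lower by a log2 value of -1.19 ± 0.18 in segment 3 than in 1, Csf1r, the receptor for colony-stimulating factor 1, by -1.15 ± 0.13, and the fractalkine receptor Cx3cr1 by -1.13 ± 0.17. All 16 macrophage and dendritic cell markers were tested and none was at 0 in a whole group. Of them 9 were lower and 2 higher, beside 25% of all genes lower and 26.2% higher. The 2 higher ones were Cd68 at 3.20 ± 0.51 and Cd14 at 2.12 ± 0.20. The summed level of the list was 190 to 204 CPM in control segment 1, 156 to 166 in segment 2 and 167 to 176 in segment 3. The sum was therefore not lowest in segment 3, where C1q was. The part of these markers in the C1q gradient was not tested. The step from segment 2 to 3 was called for C1qa and C1qb (-0.63 and -0.62, adjusted p = 0.0481 and 0.0365, edgeR), but C1qa lost the call in 12 of 19 alternatives and C1qb in 11, among them the fit without the control segment 2 library of batch 3017 (adjusted p = 0.169 and 0.129).

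After ligation 2 of the 3 C1q chains were slightly higher in segment 1, and the means of the ligated segments had the same order as those of the controls. C1qc was at 24.2 and 28.7 CPM in ligated segment 1, above both control libraries, a log2 fold change of 0.42 ± 0.14 (adjusted p = 0.0341, edgeR's quasi-likelihood test). C1qb was at 26.8 and 35.9 CPM, so that the lower ligated library lay below the higher control one, and the fold change was 0.35 ± 0.11 (adjusted p = 0.0244). C1qa was at 25.9 and 30.5 CPM against 23.3 and 25.3, with 0.21 ± 0.12 and an adjusted p of 0.187, which does not show that it behaved unlike its partners. The summed level of the 3 chains was 76.9 and 95.1 CPM in ligated segment 1, 43.2 and 43.6 in segment 2 and 33.0 and 40.7 in segment 3, beside 64.1 and 73.2, 46.8 and 47.9, and 27.0 and 35.5 CPM in the controls. Both calls were small and fragile. C1qc lost its call when any 1 of the 4 segment 1 libraries was left out (adjusted p = 0.0605 to 0.187), and C1qb without either control segment 1 library (0.159 without batch 3017 and 0.0506 without batch 3097) or without the ligated segment 1 library of batch 3097 (0.144). Without the batch term the adjusted p was 0.186 for C1qb and 0.0501 for C1qc, and by DESeq2 it was 0.0545 and 0.0572. Over the same contrast 4 of the 16 macrophage markers were higher (Cd68, Cd14, Lyz2 and Ms4a7) and none was lower, beside 24.4% of all genes called each way. Adgre1 had a log2 fold change of 0.10 ± 0.17, Csf1r -0.32 ± 0.13 and Cx3cr1 0.05 ± 0.16, none of them called. The summed marker level was 190 to 204 CPM in control segment 1 and 255 to 282 CPM in ligated segment 1. Within this sum, Cd68 went from 4.86 and 7.45 CPM in control to 58.3 and 49.4 in ligated libraries. Lyz2 went from 34.0 and 39.5 to 54.4 and 66.3 CPM. The part of these markers in the C1q values was not tested.

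**Figure D3:**
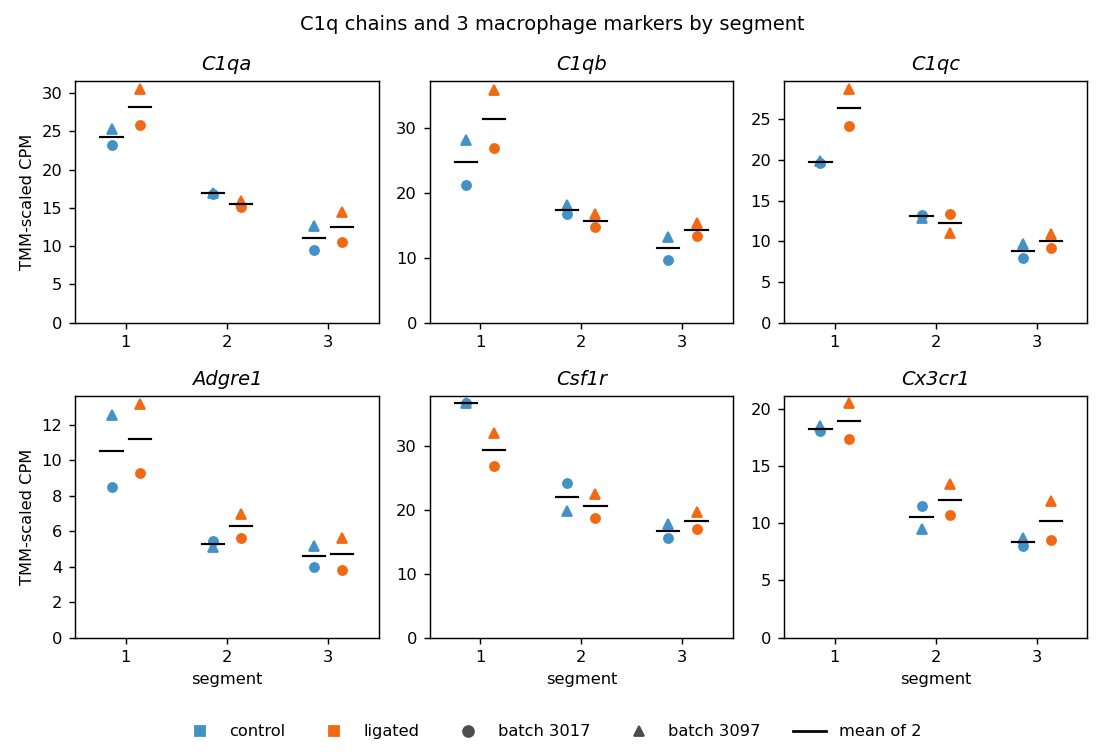
TMM-scaled CPM of the 3 C1q chains and of the macrophage markers Adgre1, Csf1r and Cx3cr1 by segment, in control (blue) and ligated (orange) libraries, with circles for batch 3017, triangles for batch 3097 and a line for the mean of 2. All 6 genes are highest in segment 1, and in segment 1 the ligated libraries of C1qc lie above the controls while those of Csf1r lie below.

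Of the initiating proteases among the 30 genes, C1ra was higher in segment 1 after ligation, and C1rl and Masp2 were not called. C1ra, which encodes C1r, the first protease of the classical route (chr6:124512405-124523443), was at 3.35 and 3.96 CPM in control segment 1 and at 7.42 and 9.77 CPM after ligation. In segments 2 and 3 all 8 libraries lay between 4.60 and 5.89 CPM, so ligated segment 1 exceeded every other library. The log2 fold change in segment 1 was 1.23 ± 0.17, or 2.34-fold (adjusted p = 0.000305, edgeR), and the call held in 19 of 19 alternatives. In control tissue C1ra was higher in segment 3 than in 1 (0.63 ± 0.17, adjusted p = 0.0107), but not without the batch 3017 library of control segment 1 (0.0795) or of control segment 3 (0.0698). The call for segment 2 against 1 (0.46 ± 0.17, adjusted p = 0.0494) was lost in 17 of 19 alternatives, 12 of which each left out a library, control or ligated, with adjusted p up to 0.21. Of 50-base words in the exons of C1ra, 48.0% also occur in its copy C1rb, which had 0 or 1 count per library, so part of its reads may be missing from the counts. C1rl, a C1r-like protease, lay at 0.206 to 1.06 CPM and Masp2, the lectin-route protease, at 0.0688 to 0.393 CPM, and neither was called in any ligation comparison. Masp2 shares 54.9% of its exon bases with Tardbp on the opposite strand, and the strand setting of the counting was not given in the sources used here.

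C3 and C4b, the substrates at the centre of the cascade, were called after ligation in segment 2 and segment 1, respectively. C3 (chr17:57203970-57228136, minus strand) peaked in control segment 2, at 90.8 and 84.8 CPM, against 24.01 and 39.0 in control segment 1 and 58.4 and 44.9 in control segment 3. The 2 control segment 2 libraries were the highest of all 12, and in this gene they were close to each other. Segment 2 exceeded segment 1 by a log2 value of 1.50 ± 0.27 (adjusted p = 0.00399, edgeR), a call that held in 19 of 19 alternatives. After ligation segment 2 was again the highest in each batch, at lower levels, with 32.4 and 36.2 CPM in segment 1, 44.3 and 40.2 in segment 2 and 26.4 and 39.9 in segment 3. The ligated segment 2 libraries were below both controls by -1.05 ± 0.26 (2.07-fold, adjusted p = 0.0497). In both batches the ratio was alike, at -1.03 and -1.07, but the adjusted p sat at the threshold and was lost in 11 of 19 alternatives. It was 0.353 without the control segment 2 library of batch 3017, 0.0883 without that of batch 3097, 0.198 and 0.232 without the ligated segment 2 libraries of batches 3017 and 3097, 0.0878 and 0.0898 without those of ligated segment 1, and 0.0521 without either of ligated segment 3. In segment 3 the value was -0.66 ± 0.26 and was not called, and the difference of the C3 effect between segments did not reach the threshold.

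The promoter of C3 is shown because the called C3 difference lay in segment 2, where its control libraries were the highest of all 12. The window is chr17:57228087-57228386 (minus) in GRCm38.p6, from RefSeq, and the capitals mark TTGCNNAA, a short form of the element bound by C/EBP factors, searched on both strands.
C3 promoter: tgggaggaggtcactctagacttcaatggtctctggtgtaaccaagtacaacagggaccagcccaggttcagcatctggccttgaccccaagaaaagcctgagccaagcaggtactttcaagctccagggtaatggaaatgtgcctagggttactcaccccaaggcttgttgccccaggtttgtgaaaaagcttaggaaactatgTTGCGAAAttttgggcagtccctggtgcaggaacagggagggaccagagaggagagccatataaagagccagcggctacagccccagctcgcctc
The letters occur once here, in 10.8% of all promoter windows and in 4 of the 23 members with one, so the match is not evidence of binding.

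C4b encodes the C4 protein that is cut by C1s. It was at 2.05 and 2.98 CPM in control segment 1 and at 6.44 and 8.45 CPM in ligated segment 1, without overlap, and the log2 fold change of 1.57 ± 0.23 (2.97-fold, adjusted p = 0.000469, edgeR) held in 19 of 19 alternatives. Control segments 2 and 3 were at 3.66 to 5.86 CPM and ligated segments 2 and 3 at 3.36 to 4.22 CPM. Segment 2 exceeded segment 1 in controls (1.10 ± 0.23, adjusted p = 0.00434), except without the control segment 1 library of batch 3017 (adjusted p = 0.0536). Segment 3 exceeded it too (0.71 ± 0.23, adjusted p = 0.028, edgeR). That call was lost in 3 of 19 alternatives, among them those without the batch 3017 library of control segment 1 or of control segment 3. Of its exon words, 34.6% also occur in the copy C4a, which had 5 to 26 counts per library. C2, the protease partner of C4b, was low, at 0.596 to 1.93 CPM, and its ligation effect in segment 1 was not called. In controls it was higher in segment 2 (1.30 ± 0.34, adjusted p = 0.0126) and in segment 3 (1.11 ± 0.34, adjusted p = 0.0204) than in segment 1. Neither call held without the control segment 1 library of batch 3017 (0.118 and 0.166), nor the second without the control segment 3 library of batch 3017 (0.22). Cfp, which encodes properdin, the stabiliser of the alternative convertase, lay at 2.00 to 3.89 CPM. It differed between control segments 2 and 1 (0.79 ± 0.19, adjusted p = 0.0095, edgeR). The Cfp call was lost in 2 of 19 alternatives, among them the fit without the control segment 1 library of batch 3017.

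C7 and C8g, the pore components of the 30 genes that could be tested, rose in segment 1 after ligation. C7, which anchors the growing pore in the membrane, was at 6.08 and 8.43 CPM in control segment 1 and at 19.8 and 36.7 CPM after ligation. The other 8 libraries lay between 7.89 and 11.1 CPM, so the increase was seen in ligated segment 1 and in no other group. The log2 fold change was 1.94 ± 0.24 (3.85-fold, adjusted p = 0.000232, edgeR), with 1.62 in batch 3017 and 2.06 in batch 3097, and held in 19 of 19 alternatives. The C7 promoter window, shown as that of the pore gene with this response, is chr15:5063724-5064023 (minus) in GRCm38.p6, from RefSeq, with capitals at TTCNNNGAA, the spacing bound by STAT dimers, which reads the same on both strands.
C7 promoter: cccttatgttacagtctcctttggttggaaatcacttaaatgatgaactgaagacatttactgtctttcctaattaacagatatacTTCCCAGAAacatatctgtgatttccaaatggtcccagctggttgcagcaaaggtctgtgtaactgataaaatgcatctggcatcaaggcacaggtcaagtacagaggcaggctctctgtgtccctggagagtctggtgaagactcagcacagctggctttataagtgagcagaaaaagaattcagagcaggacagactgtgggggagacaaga
The letters occur once here, in 8.3% of all promoter windows and in 4 of the 23 members with one, so the match is not evidence of binding.

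C8g, the gamma chain of C8 and a member of the lipocalin family, was at 4.78 and 5.69 CPM in control segment 1. It was at 9.94 and 10.7 CPM in ligated segment 1, inside the range of 8.43 to 13.0 CPM covered by the other 8 libraries. The increase was 0.99 ± 0.16 (1.98-fold, adjusted p = 0.000902, edgeR), and control segments 2 and 3 exceeded control segment 1 by 1.02 ± 0.16 and 1.04 ± 0.16 (adjusted p = 0.00106 and 0.000628). All 3 calls held in 19 of 19 alternatives. The low value of control segment 1 was therefore common to these comparisons, which share its libraries.

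Factor I, the Cfi product, cuts C3b and C4b with the help of cofactors and had the widest ratio of highest to lowest library among the 25 tested genes. It was at 2.55 and 2.59 CPM in control segment 1 and rose to 32.1 and 49.7 CPM in control segment 3. The log2 difference was 3.94 ± 0.72 (adjusted p = 0.00591, edgeR), a call lost without the control segment 1 library of batch 3097. The control segment 2 libraries were far apart, at 3.82 and 20.2 CPM, the library with more Lcn8 having less Cfi. Ligated segment 1 was at 22.7 and 17.9 CPM, a fold change of 3.03 ± 0.71 (8.14-fold, adjusted p = 0.0158), which had an adjusted p of 0.0701 and 0.102 without the control segment 1 library of batch 3017 and 3097 and of 0.0874 without the ligated segment 1 library of batch 3017. Ligated segment 2 was at 24.2 and 50.7 CPM and ligated segment 3 at 44.8 and 43.4 CPM. The segment 2 effect, 1.72 ± 0.64, was not called with both control libraries (adjusted p = 0.152), and was 3.12 with an adjusted p of 0.0219 without the control segment 2 library of batch 3097. Vtn, which encodes vitronectin, a plasma and matrix protein that binds the forming pore, lay at 0.157 to 0.756 CPM with no call.

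**Figure D4:**
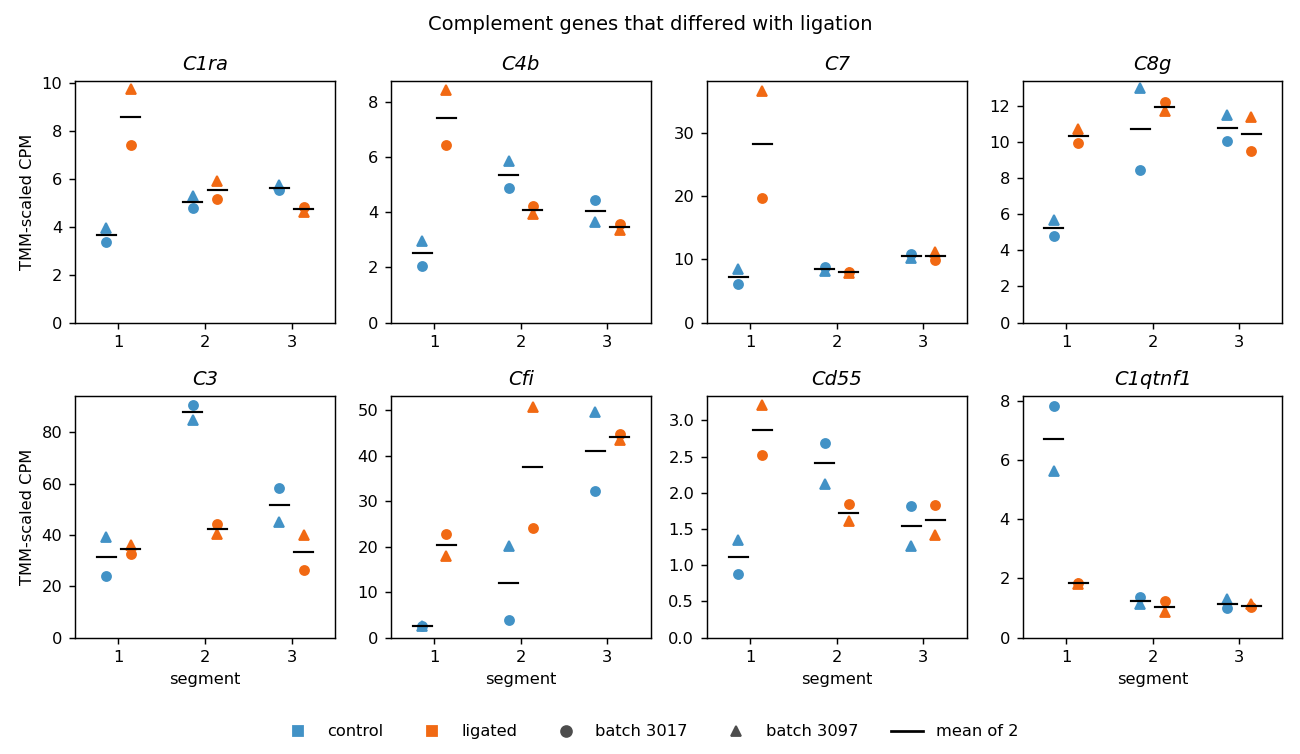
TMM-scaled CPM of 8 complement genes by segment in control (blue) and ligated (orange) libraries, with circles for batch 3017, triangles for batch 3097 and a line for the mean of 2. C1ra, C4b and C7 are highest in ligated segment 1, C3 in control segment 2 and C1qtnf1 in control segment 1, and the control segment 2 libraries of Cfi are far apart.

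Of the membrane regulators, Cd55 was the one that responded in segment 1. Cd55 encodes decay-accelerating factor, which takes convertases apart. It was at 0.876 and 1.34 CPM in control segment 1 and at 2.52 and 3.22 CPM after ligation, without overlap. The log2 fold change was 1.37 ± 0.31 (2.59-fold, adjusted p = 0.00542, edgeR; 1.00 and 0.0621 without the control segment 1 library of batch 3017). Control segment 2 was at 2.68 and 2.12 CPM, higher than control segment 1 by 1.11 ± 0.32 (adjusted p = 0.0191, edgeR). This call was lost in 3 of 19 alternatives, among them those without the batch 3017 library of control segment 1 or of control segment 2. Of the exon words of Cd55, 8.0% also occur in Cd55b.

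Cd59a was abundant in every library, at 32.2 to 67.7 CPM, and was higher in batch 3097 than in batch 3017 in all 6 groups. In control segment 2 it was at 49.8 and 67.7 CPM and in ligated segment 2 at 37.9 and 50.1 CPM, so the groups overlapped, but within each batch ligated was lower, by -0.39 and -0.43. The fit gave -0.41 ± 0.08 (adjusted p = 0.0144, edgeR), and 0.373 without the batch term. The call was lost in 5 of 19 alternatives, among them also those without the control segment 2 library of batch 3017 or either ligated segment 2 library. Control segments 2 and 3 exceeded segment 1 by 0.60 ± 0.08 and 0.37 ± 0.08 (adjusted p = 0.000391 and 0.00384, but 0.0928 and 0.269 without the batch term), the second also not without the control segment 1 library of batch 3017 (0.0514). Cd59b, another copy of the same inhibitor known for its expression in the mouse testis, had a mean of 1.48 RPKM against 25.6 for Cd59a and ranged from 0.601 CPM in control segment 1 to 3.12 CPM in ligated segment 3. In controls it rose from segment 1 to 2 (1.02 ± 0.30, adjusted p = 0.0203) and 3 (1.57 ± 0.29, adjusted p = 0.0016). The first of these was lost in 3 of 19 alternatives. Among them were those without the batch 3017 library of control segment 1 and without the batch 3097 library of control segment 2. Its highest values were in ligated segment 3, at 3.12 and 3.08 CPM. The 2 copies share 3.87% and 5.32% of their exon words. Of the words of Cd59b, 20.1% occur in some other gene, with 8.74% in Efr3a, so part of its reads may be missing from the counts.

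Cr1l and Cd46 were level. Cr1l, the gene of Crry, which protects rodent cells from C3 deposition, lay at 80.8 to 110 CPM, with no call in any comparison. Its log2 fold changes with ligation were small in the 3 segments, and the spread it did show followed batch. Cd46, a cofactor for factor I that in mice is known chiefly from the sperm acrosome, lay at 2.21 to 3.42 CPM with no call. A noncoding gene on the opposite strand shares 14.2% of its exon bases.

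Receptors for the small fragments C3a and C5a were expressed at low levels. C3ar1, the C3a receptor, was at 3.76 and 4.80 CPM in control segment 1 and at 1.70 and 2.03 CPM in control segment 3, a log2 difference of -1.19 ± 0.26 (adjusted p = 0.00416, edgeR) that held in 19 of 19 alternatives. It was highest in ligated segment 1, at 5.30 and 6.61 CPM, where the difference from control was not called. The order of its group means along the control duct was that of the C1q chains. C5ar1, the main C5a receptor, lay at 0.152 to 0.607 CPM and C5ar2, the second one, at 0.152 to 0.472 CPM, with no call.

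C1qbp, C1qtnf1 and C1qtnf2 share a name with C1q, and of these C1qtnf1 was called after ligation. C1qtnf1 encodes a secreted C1q/TNF-type protein that is not a complement component. It was at 7.81 and 5.63 CPM in control segment 1 and at 1.84 and 1.82 CPM after ligation, a fall of -1.87 ± 0.26 (3.65-fold lower, adjusted p = 0.000371, edgeR) that held in 19 of 19 alternatives. The other 8 libraries lay at 0.852 to 1.38 CPM, below both states of segment 1. In controls it was lower by -2.42 ± 0.27 in segment 2 and by -2.54 ± 0.27 in segment 3 than in segment 1 (adjusted p = 0.000181 and 8.15e-05). A noncoding antisense gene, with 0 to 2 counts per library, overlaps 20.5% of the exon bases of C1qtnf1. C1qtnf2 lay at 0.314 to 0.952 CPM with no call. C1qbp lay at 50.3 to 66.6 CPM and was called only without the ligated segment 1 library of batch 3097 (0.41, adjusted p = 0.0092) or with library totals in place of TMM.

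For some of the 30 genes the ligation effect differed between segment 1 and the later segments. The test of the difference itself was passed by 7 of 25 genes for segment 2 against 1, where 18.5% of all genes passed (8.2% with a more positive effect and 10.3% with a more negative one in segment 2), and by 5 of 25 for segment 3 against 1, where 30.7% did (14.7% more positive and 16.1% more negative). For C7 the ligation effect was smaller by a log2 value of -2.04 ± 0.33 in segment 2 and -1.96 ± 0.33 in segment 3 (adjusted p = 0.00478 and 0.0027, edgeR). For C4b it was smaller by -1.96 ± 0.32 and -1.79 ± 0.32 (0.00405 and 0.00303), for C1ra by -1.09 ± 0.23 and -1.48 ± 0.23 (0.0121 and 0.00167) and for C8g by -0.80 ± 0.23 and -1.04 ± 0.23 (0.0357 and 0.00761). C1qtnf1 differed in the other direction, by 1.59 ± 0.39 and 1.78 ± 0.39 (0.0204 and 0.00748). Cd55 (-1.85 ± 0.44, 0.0182) and Cd59a (-0.52 ± 0.11, 0.0121) passed for segment 2 against 1 and not for segment 3 against 1. Between segments 3 and 2 no gene of the 30, and 0 of all 19213 genes tested, passed by edgeR, with 2 of the 25 at an unadjusted p under 0.05 and 0 called by DESeq2. Without the control segment 1 library of batch 3017 the count for segment 2 against 1 was 2, without the ligated segment 1 library of batch 3017 it was 4, and without either ligated segment 2 library it was 3. The 5 calls for segment 3 against 1, and those of C4b and C7 for segment 2 against 1, held in 19 of 19 alternatives. For segment 2 against 1, C8g lost its call in 12 of 19, and was at -0.53 (adjusted p = 0.127) without the control segment 2 library of batch 3097. C1ra lost it without the control segment 1 library of batch 3017 or either ligated segment 2 library (adjusted p = 0.0571 to 0.0588), and C1qtnf1 without the batch 3017 library of control segment 1, ligated segment 1 or ligated segment 2 (0.0832 to 0.104). Cd55 lost it without the control segment 1 library of batch 3017, the ligated segment 1 library of batch 3097 or either ligated segment 2 library (0.0614 to 0.0833). Cd59a lost it without the batch 3017 library of control or ligated segment 1 or either ligated segment 2 library (0.0533 to 0.0701), and without the batch term (0.397).

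The rest of the pathway was read from a list of 39 further complement genes, 24 of them tested. In segment 1, 9 were higher and 2 lower after ligation, in segment 2 there was 1 of each, and in segment 3 none was called (3 with an unadjusted p under 0.05, and 0 by DESeq2). Of all genes 48.7%, 9.86% and 1.72% were called in these comparisons, so the count of 11 of 24 in segment 1 is not above the background. The median log2 fold change in segment 1 was 0.54. Without the control segment 1 library of batch 3097 or the ligated segment 1 library of batch 3017, 7 were called in segment 1. In segment 2 the count was 4 without the control segment 2 library of batch 3097, 0 when ligated segment 2 of batch 3017 was left out and 1 when that of batch 3097 was. Several of the higher genes act beside the ones above. C1s1, which encodes C1s, the partner of C1r, was at 10.1 and 14.0 CPM in control segment 1 and at 19.0 and 29.1 CPM after ligation (0.99 ± 0.12, adjusted p = 0.000204, edgeR). Its copy C1s2 went from 4.48 and 7.27 to 55.2 and 57.9 CPM (3.31 ± 0.19, adjusted p = 1.22e-05, edgeR). In control segment 3 C1s2 was at 51.2 and 55.3 CPM, close to the ligated level of segment 1. In segment 2 it went from 22.2 and 38.8 to 49.0 and 69.4 CPM (0.98 ± 0.18, adjusted p = 0.0138, edgeR). The segment 2 call was lost when only the groups compared were fitted. The copies share 21.9% and 26.9% of their exon words. Serping1, the inhibitor of C1r and C1s, was at 14.0 and 18.2 CPM and then at 37.1 and 49.3 CPM (1.42 ± 0.18, adjusted p = 0.000229).

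Clu, which encodes clusterin, an abundant epididymal protein and a fluid-phase inhibitor of the pore, was higher. It was at 453 and 564 CPM in control segment 1 and at 18693 and 16254 CPM in ligated segment 1 (5.14 ± 0.65, adjusted p = 0.000869, edgeR). In control segment 2 it was at 2252 and 10051 CPM and in control segment 3 at 16847 and 22583 CPM, so the ligated level of segment 1 was close to that of control segment 3. Colec12, a membrane collectin, was higher too (1.23 ± 0.17, adjusted p = 0.000348), as was Susd4, a membrane protein with complement control domains (0.35 ± 0.10, adjusted p = 0.0128). The lectin-route recognition gene Fcna, ficolin A, was lower after ligation (-2.28 ± 0.10, adjusted p = 3.88e-06, edgeR). Fcna was at 63.8 and 55.3 CPM in control segment 1 and at 13.4 and 11.1 CPM in ligated segment 1. Control segment 3 was at 17.9 and 14.9 CPM. In segment 2 Fcna was lower as well (-0.73 ± 0.09, adjusted p = 0.00321, edgeR), a call lost when only the groups compared were fitted. Cd93, a membrane protein of endothelial and myeloid cells once named as a C1q receptor, was also lower (-1.31 ± 0.31, adjusted p = 0.00665). The remaining 3 called genes, C8a, Fcnb and Crp, were below 1 CPM in every group.

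Markers of other cells moved in the same comparison, in which 24.4% of all genes were higher and 24.4% lower. In segment 1, 8 of 10 fibroblast markers were higher after ligation and 1, Pdgfra, was lower, while their summed level was 724 to 753 CPM in control and 553 to 723 CPM in ligated libraries. Dcn, which encodes the matrix protein decorin, was at 34.8 to 46.5 CPM in control and at 103 to 161 CPM in ligated segment 1. Of 23 interferon response genes 13 were higher and 1 lower, with summed levels of 591 to 689 CPM in control and 1216 to 1471 CPM in ligated libraries. Of 8 endothelial markers none was higher and 6 were lower, with sums of 121 to 128 CPM in control and 40.2 to 54.6 CPM in ligated libraries. The neutrophil list of 9 stayed at 1.14 to 2.10 CPM in all segment 1 libraries, with 1 marker tested and none called. Summed levels of other lists moved further. Smooth muscle markers went from 3136 to 3189 CPM in control to 442 to 562 CPM in ligated libraries, although 5 of the 6 were higher and Actg2 alone was lower. The list of T, NK and B cell markers went from 426 to 556 CPM to 11.9 to 15.8 CPM, with Cd8a higher and Klrb1c lower of 5 tested. Clear and narrow cell markers went from 215 to 298 CPM to 975 to 1080 CPM (4 of 6 higher), and mesothelial markers from 59.2 to 77.7 CPM to 493 to 531 CPM, with Krt19 the called one of 2 tested. Epididymal epithelium markers went from 75818 to 93562 CPM to 44556 to 49253 CPM, with 8 of 10 lower. The part of these cells and responses in the complement values was not tested.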

How the data were processed

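RNA-seq was measured in 12 pooled libraries in 6 groups of 2. The deposited values are raw counts of reads for each gene, whole numbers without normalization, in a table for each sequencing batch whose columns name the group, so libraries are named by group and batch. Per the labels' protocols, polyadenylated RNA from 500 ng of total RNA was made into directional libraries. Per the submitters' processing notes, Trim Galore 0.6.0, cutadapt, FastQC and STAR 2.7.0e were used on GRCm38 (mm10). The sources used here do not give the counting tool or its strand setting. All 55536 identifiers matched GENCODE release 21.

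Counts were fitted with edgeR 4.0.16 in R 4.3.3 (limma 3.58.1): genes passing filterByExpr at a minimum count of 10 (19213 genes, among them 25 of the 30 complement genes), TMM scaling, and a robust quasi-likelihood fit of group and batch over all 12 libraries with two-sided tests. The threshold was a Benjamini-Hochberg adjusted p of 0.05 over all genes tested. With 5 residual degrees of freedom, a median prior of 4.55 and a common biological coefficient of variation of 0.153, the groups share 1 estimate of the spread. Each standard error is the size of the log2 fold change divided by the square root of F. Within-batch ratios used CPM plus 0.5. RPKM used the summed exon length of each gene. The test was tried on simulated counts.

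Batch pairs the libraries because the design text places 1 library of every group in each batch. As a check, the correlation of batch differences between groups was 0.0832 to 0.55. Which replicate number belongs to which batch was left unassigned. Alternatives were DESeq2 1.42.0 and its size factors, library totals, other count filters, a fit without batch, the compared groups alone, and each library left out.

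All 30 genes are named whatever their result. Of the further complement genes, those called after ligation whose higher group averaged 1 CPM or more are named with values. The genes, lists and tests were chosen with earlier results of these data known. Promoter windows came from the RefSeq table for GRCm38.p6, which held 23 of the 30 genes, and shared sequence was counted as 50-base words of GENCODE exons. Intervals for counts of 0 cover counting error only.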

Additional observations from a re-analysis of the deposited data

Results flagged for a closer look

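The complement genes below had a ligation effect that differed between segments by a test of the difference itself (edgeR's quasi-likelihood test, Benjamini-Hochberg adjusted p, all values as log2 differences of log2 fold changes, later segment minus segment 1). For segment 2 against 1 the values were -2.04 for C7, -1.96 for C4b, -1.85 for Cd55, -1.09 for C1ra, -0.80 for C8g, -0.52 for Cd59a and 1.59 for C1qtnf1. For segment 3 against 1 they were -1.96 for C7, -1.79 for C4b, -1.48 for C1ra, -1.04 for C8g and 1.78 for C1qtnf1.

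Among the 24 further complement genes tested, 9 passed for segment 2 against 1 (18.5% of all genes did) and 8 for segment 3 against 1 (30.7% did). Besides the 7 described next, these were Ptx3 (-1.48 ± 0.45, adjusted p = 0.0473) and Thbd (1.09 ± 0.33, 0.045) in segment 2 and C8a (-2.03 ± 0.68, 0.0482) in segment 3. For segment 2 against 1 the values were -3.13 ± 0.80 for Clu (adjusted p = 0.0386), -2.33 ± 0.26 for C1s2 (0.00125), -1.28 ± 0.24 for Serping1 (0.00852), -1.10 ± 0.24 for Colec12 (0.0128), -0.97 ± 0.17 for C1s1 (0.00592), -0.57 ± 0.13 for Susd4 (0.0185) and 1.55 ± 0.13 for Fcna (0.000421). For segment 3 against 1 they were -4.69 ± 0.81 for Clu (0.00629), -3.27 ± 0.26 for C1s2 (0.000188), -1.63 ± 0.24 for Serping1 (0.00156), -1.29 ± 0.24 for Colec12 (0.00361), -1.28 ± 0.18 for C1s1 (0.000924), -0.53 ± 0.13 for Susd4 (0.0163) and 2.32 ± 0.13 for Fcna (8.6e-05). With the exception of C1qtnf1, Fcna and Thbd, each of these genes had a more positive ligation effect in segment 1 than in the later segment.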

How the results depend on the processing

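For the complement genes, 114 fitted values (50 of them called) were recomputed, namely every value of the ligation comparisons and, of the comparisons between segments, those that had been called, under 19 alternatives. Of 2145 alternative values, 2012 stayed on the same side of the threshold and 125 lost their call. Another 8, values of the ligation comparisons, gained one, and 0 called values changed sign. Among the 2012, values called in neither fit changed sign 55 times. In segment 1 after ligation, C1ra, C4b, C7, C8g and C1qtnf1 were called in every alternative run.

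The count of complement genes called in segment 1 after ligation was 15 with library totals in place of TMM, which moved the median of all genes by 0.20 in segment 1, 0.13 in segment 2 and 0.03 in segment 3. In segment 2 it was 1 with DESeq2 size factors, with library totals, with a filter of at least 1 count, with no replicate block and with only the groups compared. For the further complement genes in segment 2 it was 4 by DESeq2, 1 with no replicate block and 0 with only the groups compared. For control segment 2 against 1 it was 8 with only the groups compared. For control segment 3 against 2 it was 1 with library totals, 5 by DESeq2, and 0 with no replicate block or only the groups compared. For the ligation effect in segment 3 against 1 it was 8 with library totals. The cause of these changes was not tested. The replicate block is the sequencing batch; without it, 7 complement genes were called in segment 1 after ligation.

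With 1 library left out at a time, complement genes called after ligation ranged from 5 to 9 in segment 1, 0 to 2 in segment 2 and 0 to 0 in segment 3, and further complement genes from 7 to 13, 0 to 4 and 0 to 0. Between control segments the ranges were 5 to 13 (2 against 1), 0 to 4 (3 against 2) and 8 to 13 (3 against 1). For the ligation effect compared across segments they were 2 to 7 (2 against 1), 0 to 0 (3 against 2) and 5 to 7 (3 against 1). A group left with 1 library is assumed to vary like the others.

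With 2 pools a group, 5 residual degrees of freedom and low counts for C1rl, C2, Masp2, Vtn, C5ar1, C5ar2 and C1qtnf2, a missing call in those genes shows only that no difference was detectable at this depth. Between 2 and 41 counts per library were seen for C1rl, Masp2, Vtn, C5ar1, C5ar2 and C1qtnf2.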

Other observations

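Of 21 further genes with a C1q-type domain, 11 were tested, and 4 were higher and 3 lower in segment 1 after ligation (edgeR's quasi-likelihood test, Benjamini-Hochberg adjusted p under 0.05), beside 48.7% of all genes called, 24.4% each way. C1qtnf9, which encodes a secreted protein of the same family as C1qtnf1, was higher by a log2 value of 4.75 ± 0.56 (adjusted p = 0.000957) and C1qtnf12 by 4.23 ± 0.55 (0.00132). In control tissue segment 3 exceeded segment 1 by 4.46 ± 0.56 for C1qtnf9 and by 4.16 ± 0.54 for C1qtnf12. C1ql4 was lower after ligation by -6.47 ± 0.46 (1.46e-05) and lower in control segment 3 than in segment 1 by -7.55 ± 0.51. The matrix genes Emilin2 and Mmrn2 were lower after ligation (-3.61 ± 0.50 and -1.14 ± 0.32) and Emilin1 was higher (0.59 ± 0.17). These genes are not known as complement components, and both comparisons share the control segment 1 libraries.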
